A study of Mus musculus with 6 samples.

Results

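The 7 genes described here encode alpha, beta, gamma, and delta subunits of the GABA-A receptor: *Gabra2*, *Gabra3*, *Gabra4*, *Gabrb1*, *Gabrb2*, *Gabrg3*, and *Gabrd*. They were taken by gene symbol from a list of these 7 names, and all 7 were found among the 21744 genes measured in mouse retina at postnatal day 7 (P7). By the study's account, RNA-seq libraries came from 3 control and 3 *Lhx4* null mice, and the retinas of each mouse made 1 library. All animals had a mixed C57BL/6J; 129S6 background, and the pigment epithelium was removed from the retina before RNA extraction. The study describes *Lhx4* null mice as *Lhx4* tdT/loxP; *Six3-Cre*, in which a tdTomato reporter is knocked into one allele of *Lhx4* and Cre driven by *Six3* inactivates the other in the retina. The sample labels give the controls only as control, and the sources used here do not give the alleles that the controls of these libraries carried. The question was how the levels of these genes differed between *Lhx4* null and control retinas.

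GABA-A receptors are chloride channels built of 5 subunits around a pore, and they carry the fast response of neurons to the inhibitory transmitter GABA. Most hold alpha and beta subunits, which form the GABA binding sites between them, together with a gamma subunit, which helps to place the receptor at synapses, or a delta subunit, which is typical of receptors outside synapses. In the retina, GABA is released mainly by amacrine cells and horizontal cells, and bipolar, amacrine, and ganglion cells carry GABA-A receptors. The related rho subunits form slow GABA receptors best known from the axon terminals of bipolar cells. *Lhx4* encodes a LIM-homeodomain transcription factor made in developing bipolar cells, among other retinal cells.

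None of the 7 genes passed the test for a difference between *Lhx4* null and control retinas. That test was limma on log2(FPKM + 0.1) with Benjamini-Hochberg adjustment over 15200 genes, of which 34 passed (0.224%), 21 of them lower and 13 higher in the *Lhx4* null libraries. FPKM, fragments per kilobase of transcript scaled by the mapped fragments of the library, takes account of gene length and depth, so that levels can be set side by side between genes. *Gabrb2* was the one member below an unadjusted p of 0.05, and the one whose groups did not overlap. It had a lower level in each of the 3 *Lhx4* null libraries than in any control. Of all genes tested, 8.15% had an unadjusted p below 0.05 and 14.2% had groups that did not overlap, so 1 of 7 is close to the share among all genes for the second measure and rests on a single gene for both. The median log2 fold change of the 7 genes was -0.09, beside 0.01 for all genes tested, with 5 genes at lower and 2 at higher fitted levels. Among all 15200 genes tested, 7096 were fitted lower and 8104 higher.

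Several features of the libraries stood beside every comparison below. *Lhx4* mRNA itself measured 20.9, 23.8, and 19.1 FPKM in controls. It measured 31.2, 30.3, and 29.0 FPKM where the label reads *Lhx4* null, which limma fitted as 0.51 higher on the log2 scale (adjusted p = 0.098). A level per whole gene does not show whether the deleted or replaced sequence is missing. The higher *Lhx4* mRNA could therefore not check the label. The relative depth, recovered from the steps of the lowest values, was 76.9% to 100% of the deepest library in controls and 46.7% to 65.9% in *Lhx4* null libraries (exact permutation test, p = 0.1, the smallest that 3 against 3 allows). The Y-linked genes *Uty*, *Kdm5d*, *Ddx3y*, and *Eif2s3y* were high in control 1 and *Lhx4* null 3, at 36.7% to 51.7% of control 1 in control 2, and at 1.90% or less in the other 3 libraries. The label of retina was checked against its markers: the rod list (*Nrl*, *Nr2e3*, *Gnat1*, *Pde6b*, *Sag*) summed to between 2139 and 2630 FPKM in every library, and no marker on the lists used was at 0 in all libraries.

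The positions of the genes and the sequence at their starts show which of them lie together and how differently their promoters are composed. On GRCm38 the members lie on 5 chromosomes. *Gabra2* (ENSMUSG00000000560, chr5:70957597-71095849, minus strand), *Gabra4* (ENSMUSG00000029211, chr5:71569749-71658308, minus strand), and *Gabrb1* (ENSMUSG00000029212, chr5:71658113-72149037, plus strand) share chromosome 5. *Gabrb2* (ENSMUSG00000007653) is at chr11:42419757-42629028 on the plus strand, and *Gabrg3* (ENSMUSG00000055026) at chr7:56716465-57387188 on the minus strand. *Gabra3* (ENSMUSG00000031343) is at chrX:72432681-72656848 and *Gabrd* (ENSMUSG00000029054) at chr4:155384980-155398112, both on the minus strand. *Gabra4* and *Gabrb1* stand head to head, and their gene models overlap by 196 bases on opposite strands, which includes 0.756% of the exon bases of *Gabra4* and 0.332% of those of *Gabrb1*. Whether counting used strand is not given in the sources used here, so fragments from that stretch cannot be assigned to one gene or the other. The other 5 members share no exon base with another gene.

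RefSeq promoter windows (GRCm38.p6, 250 bases before and 50 after each start) were found for 6 of the 7 genes, in 10 windows. The windows of 4 genes are printed 5' to 3' on the strand of the gene: *Gabrb2* (chr11:42420190-42420489, plus strand), the one gene with separate groups, *Gabra4* (chr5:71658259-71658558, minus strand) and *Gabrb1* (chr5:71657671-71657970, plus strand), the head-to-head pair, and *Gabra3* (chrX:72656758-72657057, minus strand), the gene with the highest level of the 7. Capitals mark matches to motifs searched on both strands. In these windows they are TATAAA (the TATA box core, written TTTATA where it lies on the opposite strand) and GGGCGG (the core bound by Sp1, written CCGCCC where it lies on the opposite strand).
Gabrb2: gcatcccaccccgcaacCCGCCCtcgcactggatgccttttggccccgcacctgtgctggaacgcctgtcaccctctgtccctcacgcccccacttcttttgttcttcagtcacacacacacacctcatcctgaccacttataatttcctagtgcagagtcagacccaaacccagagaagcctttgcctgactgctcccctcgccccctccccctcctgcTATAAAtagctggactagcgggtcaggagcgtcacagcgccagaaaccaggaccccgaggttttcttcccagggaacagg
Gabra4: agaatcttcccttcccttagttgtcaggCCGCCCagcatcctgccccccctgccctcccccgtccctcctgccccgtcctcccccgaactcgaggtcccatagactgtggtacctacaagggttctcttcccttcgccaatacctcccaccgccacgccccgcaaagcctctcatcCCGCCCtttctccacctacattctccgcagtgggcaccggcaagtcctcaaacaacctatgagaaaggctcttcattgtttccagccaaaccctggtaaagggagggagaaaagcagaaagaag
Gabrb1: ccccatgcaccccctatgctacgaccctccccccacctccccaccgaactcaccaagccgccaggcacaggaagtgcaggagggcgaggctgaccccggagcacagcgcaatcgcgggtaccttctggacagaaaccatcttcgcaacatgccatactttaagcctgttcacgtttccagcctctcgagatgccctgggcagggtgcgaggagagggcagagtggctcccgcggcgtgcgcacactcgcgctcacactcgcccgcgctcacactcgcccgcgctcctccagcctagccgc
Gabra3: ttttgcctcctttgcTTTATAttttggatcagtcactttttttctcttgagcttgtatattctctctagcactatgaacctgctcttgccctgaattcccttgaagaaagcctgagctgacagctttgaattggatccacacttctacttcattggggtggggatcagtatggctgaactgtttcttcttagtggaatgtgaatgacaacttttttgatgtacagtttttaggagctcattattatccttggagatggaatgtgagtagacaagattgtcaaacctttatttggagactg
The printed *Gabrb2* window held TATAAA 30 bases before the start, a motif found in 13.6% of 32851 RefSeq windows of the same length, and 1 GGGCGG, found in 35.7%. The other *Gabrb2* windows, from later starts, held neither motif and had 54.7% and 41.0% G and C. The *Gabra4* window held 2 matches to GGGCGG and the *Gabrb1* window held none. The RefSeq start of *Gabrb1* (chr5:71657921) lies inside *Gabra4*, 387 bases past the *Gabra4* start (chr5:71658308). In the GENCODE gene models above the overlap is 196 bases, so the 2 sources differ there. The *Gabra3* window had 39.3% G and C and 0 CpG, whereas the first windows of the other 5 genes had between 58.7% and 70.0% G and C and between 11 and 25 CpG, beside a median of 52.7% and 7 CpG over all windows. Both *Gabra3* windows hold the same TATAAA match. TAATTA, a core often bound by LIM-homeodomain factors, was in 0 of the 10 windows and in 5.29% of all windows, and TAATCC, the core preferred by Otx2 and Crx, was in 1 window, that of *Gabra2*, and in 7.06% of all. These matches describe the letters in the windows and were not tested as sites.

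The 7 genes spanned a wide range of levels, from about 8 FPKM for *Gabra3* to under 1 FPKM for *Gabra4* and *Gabrb1*. By mean FPKM over the 6 libraries the order was *Gabra3* (8.19), *Gabra2* (6.51), *Gabrb2* (4.86), *Gabrd* (3.39), *Gabrg3* (1.82), *Gabra4* (0.869), and *Gabrb1* (0.581). The steps from *Gabrb2* to *Gabrd*, from *Gabrd* to *Gabrg3*, and from *Gabrg3* to *Gabra4* were seen in 6 of 6 libraries, with ranges that did not overlap. *Gabra4* was above *Gabrb1* in 6 of 6 libraries, by 1.35 to 1.71 times, although their ranges over the libraries overlapped. The top of the order was not separated: *Gabra2* was above *Gabra3* in *Lhx4* null 1, and *Gabra2* and *Gabrb2* were at a ratio of 0.999 in control 2. Among genes tested, even *Gabra3* was only at the 48.5th percentile of mean level and *Gabrb1* at the 13.0th.

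**Figure D1:**
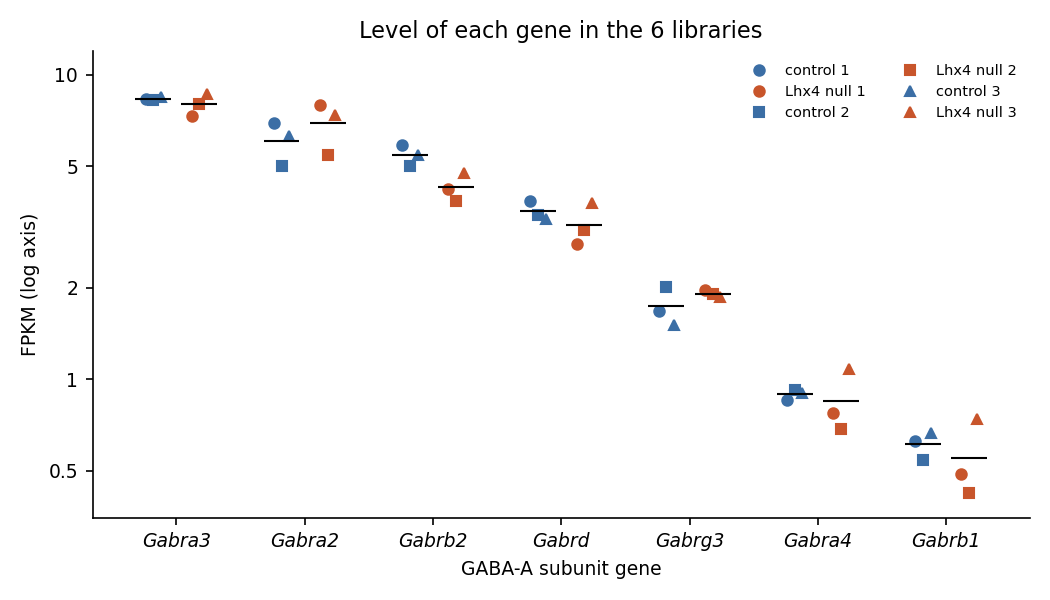
FPKM (log axis) of the 7 subunit genes in each of the 6 libraries, ordered by mean level, with blue points for control, orange points for *Lhx4* null, a marker shape for each replicate number, and black lines for group means. *Gabrb2* is the one gene whose *Lhx4* null points (3.86 to 4.76 FPKM) all lie below its control points (5.004 to 5.89 FPKM).

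*Gabra3*, the highest of the 3 alpha subunit genes among the 7, varied little in controls. It measured 8.33, 8.29, and 8.46 FPKM in controls and 7.34, 8.04, and 8.66 FPKM in *Lhx4* null libraries. The *Lhx4* null libraries lay on both sides of the controls, and the groups overlapped. Its log2 fold change, *Lhx4* null minus control, was -0.06 (SE 0.09, 95% interval -0.27 to 0.14, adjusted p = 0.889 from limma). *Gabra3* is the X-linked member, and among *Lhx4* null libraries its highest value, 8.66 FPKM, was in the library with high Y-linked levels, while its control values lay within 8.29 to 8.46 FPKM. The part of the Y-linked difference in these values was not tested.

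*Gabra2*, the alpha subunit next in level, varied between libraries of both groups. It measured 6.97, 4.998, and 6.28 FPKM in controls and 7.97, 5.46, and 7.38 FPKM in *Lhx4* null libraries. Replicate 2 was the low library in each group, and the groups overlapped. The log2 fold change was 0.18 (SE 0.17, 95% interval -0.21 to 0.57, adjusted p = 0.799 from limma).

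*Gabra4* and the beta subunit gene *Gabrb1*, the head-to-head pair, had the lowest levels. *Gabra4* measured 0.853, 0.922, and 0.901 FPKM in controls and 0.775, 0.685, and 1.08 FPKM in *Lhx4* null libraries. *Gabrb1* measured 0.626, 0.540, and 0.666 FPKM in controls and 0.488, 0.424, and 0.742 FPKM in *Lhx4* null libraries. In both genes *Lhx4* null 3 was above every control and the other *Lhx4* null libraries were below every control, so the spread in the *Lhx4* null group (24.3% and 30.5% of the mean) was far wider than in controls (3.94% and 10.5%). The log2 fold change was -0.09 for *Gabra4* (SE 0.19, 95% interval -0.54 to 0.36, adjusted p = 0.931) and -0.15 for *Gabrb1* (SE 0.23, 95% interval -0.68 to 0.37, adjusted p = 0.897, both from limma). Without *Lhx4* null 2 the log2 fold change of *Gabra4* turned to 0.03.

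*Gabrb2*, the beta subunit with the higher level, held the clearest difference between groups. It measured 5.89, 5.004, and 5.46 FPKM in controls (5.45 ± 0.44, SD, n = 3) and 4.21, 3.86, and 4.76 FPKM in *Lhx4* null libraries (4.28 ± 0.45, SD, n = 3). The highest *Lhx4* null library was below the lowest control, and the *Lhx4* null mean was 78.5% of the control mean. The log2 fold change was -0.34 (SE 0.12, 95% interval -0.61 to -0.08), with an unadjusted p = 0.0179 and an adjusted p = 0.521 from limma. Among all genes tested, 3.55% had a lower level at an unadjusted p below 0.05, and 6.13% had *Lhx4* null libraries all below the controls. The unadjusted p was 0.080 without control 1, 0.050 without control 3, and 0.055 without *Lhx4* null 2 (limma), and the log2 fold change stayed between -0.42 and -0.28 over the 15 alternatives run. With the summed level of the 4 Y-linked genes as a covariate, chosen after seeing the data, it was -0.32 (unadjusted p = 0.0231, limma).

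In whole retina, fewer cells of a type and less RNA per cell cannot be told apart. Marker lists of retinal cell types are given here beside *Gabrb2*. For scale, 0.224% of all genes tested passed the adjusted threshold, and 3.55% were lower and 4.60% higher at an unadjusted p below 0.05 (limma). In fitted level, 7096 of all genes tested were lower and 8104 higher. Over the 9 bipolar cell markers the median log2 fold change was -0.70, where 8 of 9 were lower and 4 of 9 past the adjusted threshold, and they summed to 740 to 871 FPKM in controls and 596 to 662 FPKM in *Lhx4* null libraries. The 4 that fell were *Grm6* (log2 fold change -1.49), *Pcp2* (-2.17), *Scgn* (-1.73), and *Isl1* (-0.70), which are named after their values were seen. *Otx2* and *Gnao1* were the most abundant of the list and did not pass, with *Otx2* the one at a higher fitted level, and none was at 0. Over the 14 amacrine cell markers the median was 0.12, with 12 of 14 higher and 0 past the adjusted threshold (4 at an unadjusted p below 0.05), and they summed to 575 to 618 FPKM in controls and 626 to 677 FPKM in *Lhx4* null libraries. Over the 5 rod markers the median was -0.29, with 4 of 5 lower and 0 past the adjusted threshold or an unadjusted p of 0.05. The 4 pigment epithelium markers, led by *Ttr*, had 0 past the adjusted threshold (2 higher at an unadjusted p below 0.05) and summed to 12.9 to 28.1 FPKM in controls and 29.7 to 52.4 FPKM in *Lhx4* null libraries. The part of these markers, and of the lower depth of the *Lhx4* null libraries, in the *Gabrb2* values was not tested.

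The gamma and delta subunit genes did not separate the groups. *Gabrg3*, a gamma subunit gene, measured 1.68, 2.01, and 1.51 FPKM in controls and 1.97, 1.90, and 1.86 FPKM in *Lhx4* null libraries. Its *Lhx4* null values lay within the range of the controls, and the log2 fold change was 0.14 (SE 0.15, 95% interval -0.19 to 0.48, adjusted p = 0.818 from limma). *Gabrd*, the delta subunit gene, measured 3.86, 3.46, and 3.37 FPKM in controls and 2.78, 3.08, and 3.79 FPKM in *Lhx4* null libraries. *Lhx4* null 1 and 2 were below every control and *Lhx4* null 3 was among them, with a log2 fold change of -0.15 (SE 0.14, 95% interval -0.47 to 0.17, adjusted p = 0.797 from limma).

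**Figure D2:**
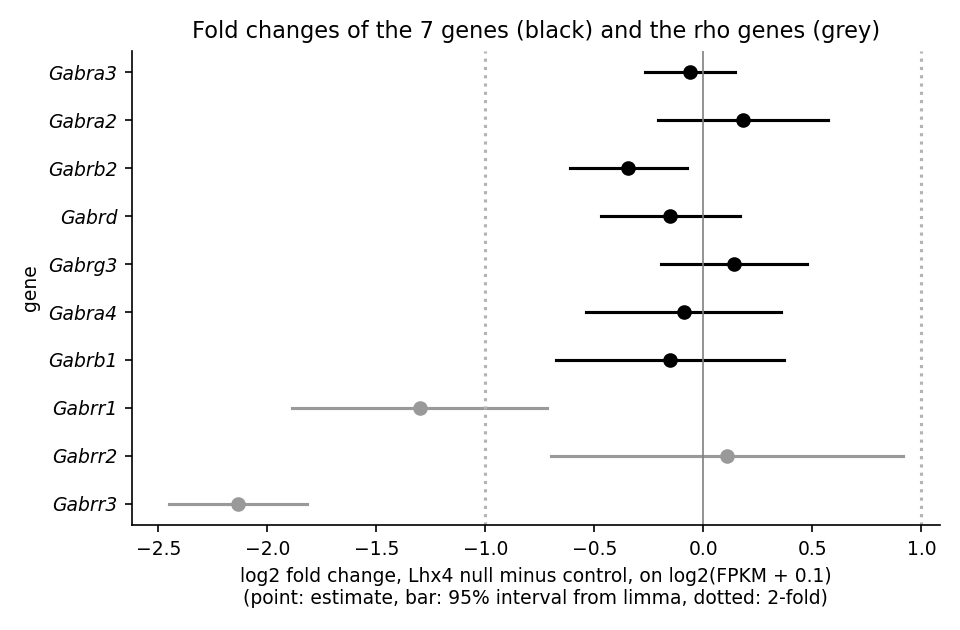
Log2 fold change, *Lhx4* null minus control, on log2(FPKM + 0.1), for the 7 genes (black) and the 3 rho subunit genes (grey), with points for estimates, bars for 95% intervals from limma, and dotted lines at a 2-fold difference. All 7 black intervals lie between the dotted lines, and that of *Gabrb2* (-0.61 to -0.08) does not reach 0.

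The intervals limit how large a difference these libraries could hide. All 7 lay within a 2-fold difference in either direction, as did those of 90.4% of all genes tested. The widest was that of *Gabrb1*, from 0.626 to 1.29 times control, and the narrowest that of *Gabra3*, from 0.829 to 1.11 times. These are ratios of FPKM + 0.1, and the added 0.1 draws them toward no difference at low levels such as that of *Gabrb1*. The interval of *Gabrb2* was the one that did not include 0, before any adjustment for the number of genes tested.

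The summed level of the 7 genes was close in both groups, and *Gabrb2* made up less of it in *Lhx4* null libraries. The sum was 28.2, 25.2, and 26.6 FPKM in controls and 25.5, 23.5, and 28.3 FPKM in *Lhx4* null libraries, and the groups overlapped. *Gabrb2* took 19.8% to 20.9% of it in controls (20.4% ± 0.53, SD, n = 3) and 16.5% to 16.8% in *Lhx4* null libraries (16.6% ± 0.21, SD, n = 3). The groups did not overlap, and an exact two-sided permutation test gave p = 0.1, the smallest possible with 3 against 3. The shares of the other 6 genes overlapped between groups (exact permutation test, p = 0.3 to 1). *Gabrb2* was singled out here after its values were seen, and shares of one sum are not independent of each other.

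**Figure D3:**
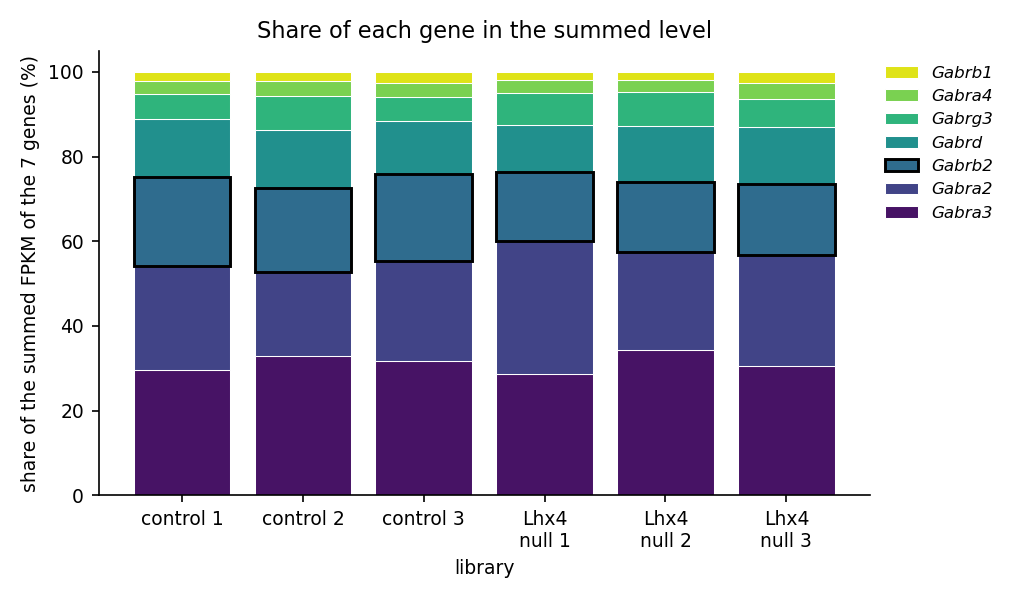
Share of each gene in the summed FPKM of the 7 genes (%), stacked for each of the 6 libraries, with *Gabrb2* outlined in black. The outlined segment is 19.8% to 20.9% in control libraries and 16.5% to 16.8% in *Lhx4* null libraries.

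Against *Gabra3* as a within-library measure, *Gabrb2* again lay lower in the *Lhx4* null libraries. The ratio of *Gabrb2* to *Gabra3* was 0.707, 0.604, and 0.645 in controls and 0.574, 0.480, and 0.549 in *Lhx4* null libraries. The groups did not overlap, which describes the same *Gabrb2* values on another scale. Against *Gabrb1* the groups did overlap, at 9.41, 9.26, and 8.19 in controls and 8.63, 9.12, and 6.41 in *Lhx4* null libraries. The ratio of *Gabra2* to *Gabra3*, the alpha subunit genes of higher level among the 7, was 0.836, 0.603, and 0.743 in controls and 1.09, 0.680, and 0.852 in *Lhx4* null libraries, with overlap.

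Single libraries stood high or low for several members at once. *Lhx4* null 3 was the highest of its group for 5 of the 7 genes (*Gabra3*, *Gabra4*, *Gabrb1*, *Gabrb2*, and *Gabrd*), whereas it was the highest for 31.7% of all genes tested. *Lhx4* null 2 was the lowest of its group for 4 of the 7 (28.8% of all genes tested), and control 2 the lowest for 4 of the 7 (41.6% of all genes tested). *Gabrg3* and *Gabra4* went the other way in control 2, where each had the highest level of its group.

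**Figure D4:**
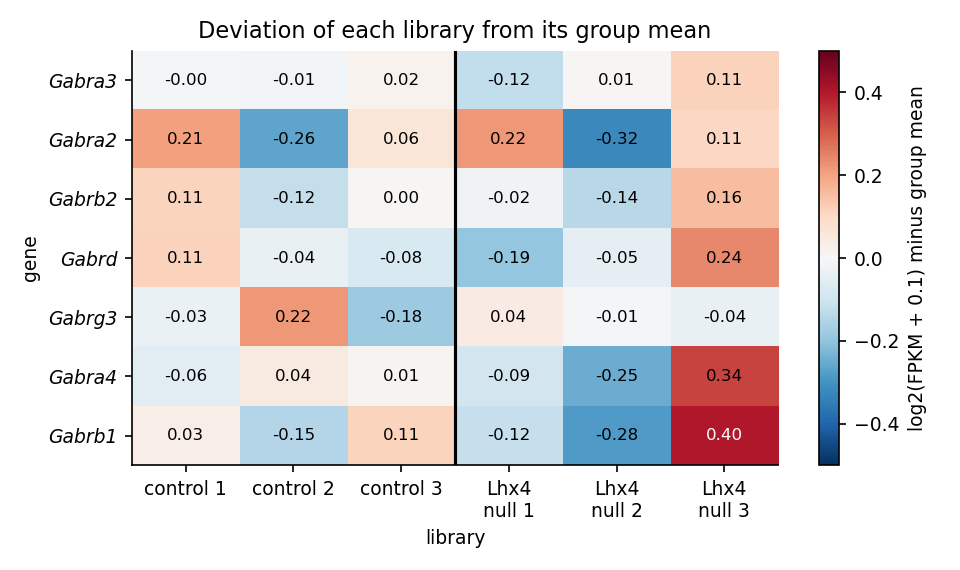
Deviation of log2(FPKM + 0.1) in each library from the mean of its own group, for the 7 genes in rows and the 6 libraries in columns, with red for above and blue for below. *Lhx4* null 3 is above its group mean by 0.34 for *Gabra4* and by 0.40 for *Gabrb1*, the largest deviations shown.

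Members differed in how alike their profiles over the 6 libraries were. Likeness was measured as the root-mean-square difference of log2(FPKM + 0.1) after centring each gene, where a smaller value is more alike. Among the 21 pairs of members, *Gabra3* and *Gabrd* were the most alike (0.099), and the head-to-head genes *Gabra4* and *Gabrb1* came next (0.105). *Gabrb1* and *Gabrg3* were the least alike (0.328). Low spread alone gives a small value, and the 6 libraries share depth and group, so these are descriptions with no test.

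Over all genes that averaged 1 FPKM or more, the profile most like that of *Gabrb2* was *1500011K16Rik* (0.044), at 17.1, 14.3, and 16.4 FPKM in controls and 12.8, 12.1, and 13.9 FPKM in *Lhx4* null libraries. The closest to *Gabra3* was *Znhit1* (0.0085), and the closest to *Gabra2* was *Cbr4* (0.077). *Clybl* was nearest to *Gabra4* (0.056) and *Gm4924* to *Gabrb1* (0.047). *Gm20605* was nearest to *Gabrg3* (0.040) and *Hexdc* to *Gabrd* (0.033). Each was the closest of 12485 candidates over 6 libraries and is given as a description with no test.

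Other GABA-A subunits outside the 7 are given for scale. *Gabra5* (0.956 ± 0.074 against 1.01 ± 0.21 FPKM, SD, n = 3) and *Gabrg1* (1.32 ± 0.017 against 1.23 ± 0.11 FPKM) were at levels between those of *Gabrg3* and *Gabrb1*. *Gabre* and *Gabrq* were below 0.5 FPKM on average, *Gabrp* was above 0 in 1 library, and *Gabra6* was listed at 0 in all. Of the rho subunits, *Gabrr3* fell (log2 fold change -2.14, SE 0.14, adjusted p = 0.000852), *Gabrr1* was at -1.30 (SE 0.26, adjusted p = 0.137), and *Gabrr2* was at 0.11 (adjusted p = 0.956, limma). The interval of *Gabrr3*, -2.45 to -1.82, did not overlap that of any of the 7 genes, and that of *Gabrr1*, -1.89 to -0.72, was also below all 7. A difference between the rho genes and the 7 was not tested.

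The genes that make, clear, and transport GABA had fitted values mostly above 0, and none of the 9 passed the adjusted threshold. Of these, 8 were higher and 1 lower, with a median log2 fold change of 0.12, while 8104 of the 15200 genes tested were higher. *Gad2*, which encodes the GABA-synthesizing enzyme GAD65, was the one below an unadjusted p of 0.05. It measured 5.01, 5.23, and 4.98 FPKM in controls and 7.71, 6.56, and 5.97 FPKM in *Lhx4* null libraries, with no overlap (log2 fold change 0.40, SE 0.11, unadjusted p = 0.00776, adjusted p = 0.410, limma). Among all genes tested, 8.15% had an unadjusted p below 0.05 (limma) and 14.2% had groups that did not overlap. *Gad1*, *Gad2*, and *Slc32a1* are also in the amacrine list above.

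Genes for the clustering and traffic of GABA-A receptors were near 0 as a list, with 8 of 15 lower, 7 higher, 0 past the adjusted threshold, and a median of -0.04. *Slitrk3*, a postsynaptic adhesion protein of inhibitory synapses, was the one below an unadjusted p of 0.05, at 4.60, 5.72, and 4.40 FPKM in controls and 4.18, 3.18, and 3.53 FPKM in *Lhx4* null libraries. Its groups did not overlap (log2 fold change -0.42, SE 0.15, adjusted p = 0.528, limma). *Gphn* and *Plcl1* also had separate groups, both lower in *Lhx4* null libraries, which makes 3 of 15. Of all genes tested, 14.2% had groups that did not overlap and 8.15% had an unadjusted p below 0.05 (limma).

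The chloride cotransporters set the direction of the GABA-A current: *Slc12a5* (KCC2) exports chloride and *Slc12a2* (NKCC1) imports it. *Slc12a5* measured 54.6, 65.6, and 50.6 FPKM in controls and 58.6, 44.8, and 45.3 FPKM in *Lhx4* null libraries (adjusted p = 0.712, limma). *Slc12a2* measured 8.31, 9.01, and 7.85 FPKM in controls and 8.44, 7.55, and 8.17 FPKM in *Lhx4* null libraries (adjusted p = 0.906, limma). Both overlapped between groups.

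The metabotropic GABA-B receptor genes gave 0 of 5 past either threshold, with a median of -0.03. *Gabbr1* measured 66.7, 68.2, and 60.5 FPKM in controls and 66.0, 64.8, and 60.5 FPKM in *Lhx4* null libraries, and *Gabbr2* was between 11.1 and 14.1 FPKM in all 6. Among glycine receptor genes, which belong to the same channel superfamily, 0 of the 4 tested passed. *Glra1* was at -1.37 (SE 0.21, adjusted p = 0.057, limma), and *Glra4* was below the 0.1 FPKM limit.

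**Figure D5:**
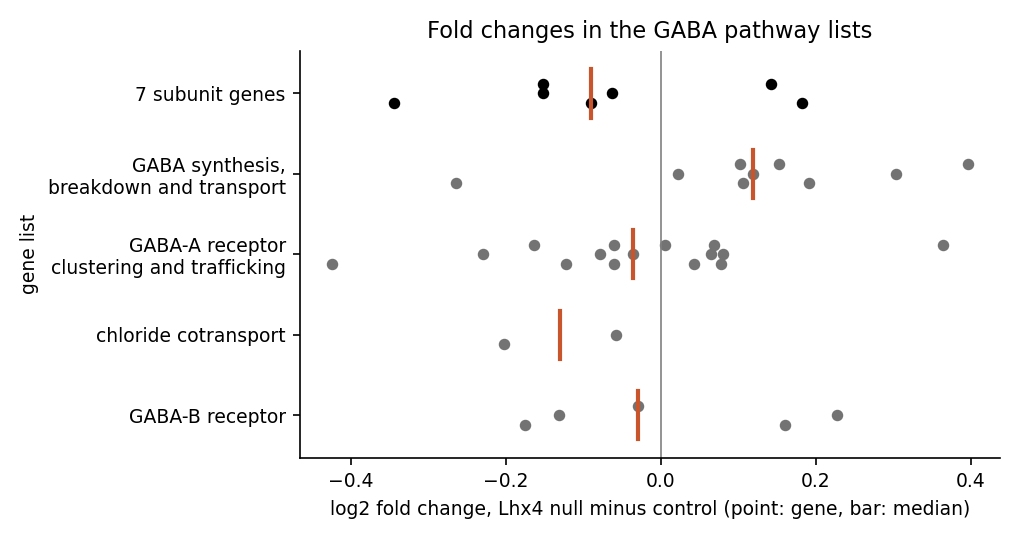
Log2 fold change, *Lhx4* null minus control, of each gene (points) and the median (orange bars) for the 7 subunit genes and 4 lists of GABA pathway genes. The medians run from -0.13 for chloride cotransport to 0.12 for synthesis, breakdown, and transport.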

How the data were processed

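By the study's account, each library held retinal RNA of 1 mouse, prepared with TruSeq and sequenced as paired-end reads. Per the submitters' processing notes, reads were mapped to GRCm38 with TopHat2 and quantified with Cufflinks; versions and annotation are not given in the sources used here. The authors deposited FPKM per gene, normalized for length and depth, which are not counts, so no count model was fitted. No column was left unused.

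Values were put on the log2(FPKM + 0.1) scale, and the 15200 genes that averaged 0.1 FPKM or more were tested in limma 3.58.1 (R 4.3.3; lmFit, then eBayes using a trend), as *Lhx4* null minus control without covariates, two-sided, with Benjamini-Hochberg adjustment. The fold change understates the change of low genes. Members and lists were chosen with earlier results of these data known. The genes named were the members, *Lhx4*, other GABA-A subunit genes, the nearest profile to each member, and list genes below an unadjusted p of 0.05 or, failing any, the 2 with the highest mean. Markers were named for some lists only, as the 2 most abundant of the bipolar list and all of the rod list. Other markers were named after their values were seen, as were *Gphn* and *Plcl1*. Some genes that this rule names are not reported here, and *Xist* was not analysed here. Alternatives changed the pseudocount, filter, scaling, trend, replicate block, and libraries. Relative depth came from genes under 0.1 FPKM. The fit was tested on simulated data. Positions are from GENCODE vM21, which holds 21603 of the 21744 identifiers. Plots used Python 3.11.15 and matplotlib 3.10.9.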

Additional observations from a re-analysis of the deposited data

How the results depend on the processing

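Of 221 values recomputed under an alternative, 199 were kept, 21 counts moved, and 1 value reversed. Kept meant the same direction and side of the adjusted threshold, a count within 1.5 times, or a depth within 2 percentage points. An unadjusted p could change without altering that label. The reversed value was the log2 fold change of *Gabra4*, which was above 0 without *Lhx4* null 2. It was -0.26 to 0.033 with each library left out in turn. No member passed an adjusted p of 0.05 under any alternative (limma). *Gabrb2* was below an unadjusted p of 0.05 in 12 of 15 alternatives, and its lowest adjusted p was 0.346. With each library left out in turn, members below an unadjusted p of 0.05 numbered 0 to 1 (0 without control 1, control 3, or *Lhx4* null 2), all such genes 690 to 1980, genes past the adjusted threshold 13 to 19 lower and 2 to 12 higher, and pathway genes below an unadjusted p of 0.05 numbered 3 to 8. Of all such genes, there were 690 without control 3, 772 without control 1, and 1980 without *Lhx4* null 1. The 13 lower genes came without control 1, control 2, or *Lhx4* null 3, and leaving out any library but *Lhx4* null 1 gave 7 or fewer higher genes. The 6 and 8 pathway genes came without control 2 and without *Lhx4* null 1. With the replicate block, 11 genes passed lower and 4 higher, and it changed no call of a member. The libraries share only a number: deviations of same-numbered libraries correlated at -0.13 to 0.16, and 2 of 6 libraries were closest to their own number. Without a filter on low values, 6 genes passed higher. Of the pathway genes, 1 (*Glra1*) passed the adjusted threshold when the pseudocount was 1 FPKM (adjusted p = 0.0489) and 1, again *Glra1*, when no trend was used (adjusted p = 0.0492, limma). *Gabra4* and *Gabrb1* were not tested at a minimum mean of 1 FPKM. The precision of each member is limited as its 95% interval shows.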

Other observations

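The summed level of the 4 Y-linked genes was 110.8 FPKM in control 1, 44.2 FPKM in control 2, 1.39 FPKM in control 3, 0.326 FPKM in *Lhx4* null 1, 0.236 FPKM in *Lhx4* null 2, and 112.3 FPKM in *Lhx4* null 3. The value of control 2 lay between those of the other libraries, and the labels give no sex. Whether control 2 held RNA of 1 mouse only was not tested.

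Cone photoreceptor markers summed to 323 to 470 FPKM in controls and 527 to 651 FPKM in *Lhx4* null libraries, with 4 of 5 higher and 1, *Opn1sw*, past the adjusted threshold in limma with Benjamini-Hochberg adjustment (adjusted p = 0.0306). The one lower, *Arr3*, was at -1.27 on the log2 scale with no overlap between groups (unadjusted p = 0.000253, adjusted p = 0.077, limma). Ganglion cell, horizontal cell, Muller glia, microglia, and endothelium lists had 0 genes past that threshold, beside 0.224% of all genes tested.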
